A study of Mus musculus with 2 samples.

Results

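The 6 genes described here, of 32285 in the count tables, were taken by symbol. Alox5, Alox5ap, Lta4h, Ltc4s and Ltb4r1 serve to make or sense leukotrienes, and Alox15 encodes a related lipoxygenase. They were measured by scRNA-seq in the temporomandibular joint (TMJ) of C57BL/6 mice, aged 8 to 10 weeks. The mice were female. Complete Freund's adjuvant (CFA), an oil with killed mycobacteria that inflames a joint, was given to both groups, so no uninflamed joint was compared. The groups were WT mice and mice with 1 mutant copy of Prox1, a transcription factor of lymphatic endothelium, labelled Prox1 mutant, with 1 library each. How many mice were pooled into a library is not given in the sources used here, and the mutation is carried by every cell of the mutant mice. The question was how the leukotriene genes were distributed over the cells of the inflamed joint, and where their levels differed between the genotypes.

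Leukotrienes are lipid mediators that leukocytes make from arachidonic acid. Alox5 encodes 5-lipoxygenase, which converts the acid to the unstable epoxide LTA4, and Alox5ap encodes FLAP, the membrane protein that presents the acid to it. LTA4 then goes one of 2 ways: the hydrolase encoded by Lta4h makes LTB4, which draws in neutrophils through the receptor encoded by Ltb4r1 (BLT1), and the synthase encoded by Ltc4s joins it to glutathione to make LTC4, the first of the cysteinyl leukotrienes. Alox15 encodes 12/15-lipoxygenase, which oxidises the same acid at other carbons. LTB4 is known as a driver of neutrophil entry in mouse models of arthritis.

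On GRCm38, Alox5 (ENSMUSG00000025701) lies on the minus strand of chromosome 6 from 116410077 to 116461178, and Alox5ap (ENSMUSG00000060063) on the plus strand of chromosome 5 from 149264767 to 149288153. Lta4h (ENSMUSG00000015889) lies on the plus strand of chromosome 10 from 93453411 to 93484875. Ltc4s (ENSMUSG00000020377) lies on the minus strand of chromosome 11 from 50236461 to 50238616, and Alox15 (ENSMUSG00000018924) on the same strand of that chromosome from 70344152 to 70352031. Ltb4r1 (ENSMUSG00000046908) lies on the plus strand of chromosome 14 from 55765962 to 55768494. No gene overlapped any of the 6 on its own strand, while n-R5s180 and Gm19719 overlapped Alox5ap, and Gm26542 overlapped Ltc4s, on the other strand.

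The bases before the start sites of 3 members are shown because these genes differed most between neutrophils and macrophages: Alox5 and Ltb4r1 stood higher in neutrophils, and Ltc4s in macrophages. They are RefSeq sequences of GRCm38.p6, printed 5′ to 3′ on the strand of the gene: chr6:116461179-116461428 (minus) for Alox5, chr14:55765712-55765961 (plus) for Ltb4r1 and chr11:50238617-50238782 (minus) for Ltc4s. The windows searched were the 250 bases before RefSeq's start site. For Ltc4s that start lies inside the gene coordinates given above, so the last 84 bases of its window, which fall within the annotated gene, are not printed. Capitals mark matches, searched on both strands, to GGGCGG (an SP1 box) or AGGAAGT (a PU.1 core).
Alox5: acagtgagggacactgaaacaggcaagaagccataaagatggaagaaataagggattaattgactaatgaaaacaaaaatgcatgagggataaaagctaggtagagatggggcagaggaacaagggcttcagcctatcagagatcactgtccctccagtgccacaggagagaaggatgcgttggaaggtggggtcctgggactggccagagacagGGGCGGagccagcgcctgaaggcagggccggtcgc
Ltb4r1: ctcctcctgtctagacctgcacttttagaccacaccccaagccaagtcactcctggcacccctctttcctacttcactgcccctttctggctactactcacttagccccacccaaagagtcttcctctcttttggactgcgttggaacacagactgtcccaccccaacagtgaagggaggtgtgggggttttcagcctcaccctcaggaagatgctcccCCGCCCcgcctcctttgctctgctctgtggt
Ltc4s: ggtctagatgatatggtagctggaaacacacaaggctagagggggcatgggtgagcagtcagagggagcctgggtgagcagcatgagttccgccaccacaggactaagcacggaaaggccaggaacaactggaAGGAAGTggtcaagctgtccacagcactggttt
GGGCGG began at base 216 of the Alox5 window and, on the other strand, at base 220 of the Ltb4r1 window, and 32.7% of 32851 promoter windows of this length held it. AGGAAGT began at base 134 of the Ltc4s window and was in 7.69% of all windows. A match describes the letters only and is not a measured binding site. The window of Lta4h (chr10:93453146-93453395, plus) held neither motif.

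In total there were 53517206 UMIs from 5709 barcodes for WT and 62446987 UMIs from 7846 for the mutant, where a UMI marks 1 captured transcript. After filtering there were 4352 WT and 5757 mutant cells, at medians of 6997 and 4848 UMIs, and 10 barcodes occurred in both libraries (4 among the kept cells). In endothelial cells Prox1 was at 43.6 CPM (38.8 to 48.9) for the WT mice and at 26.4 (21.9 to 31.6) for the mutant mice, where CPM is counts per 1000000 UMIs of the cells named. Cell types are clusters named from marker genes, so "neutrophils" stands for neutrophil-like cells throughout, and 581 WT cells (13.4%) and 2137 mutant cells (37.1%) were in clusters left unnamed. Erythroid RNA was spread through the mutant cells: the 6 erythroid markers summed to 798 CPM in WT neutrophils and 2969 in mutant neutrophils, and to 398 and 2447 in macrophages. Each value stands for 1 library and has a 95% interval of counting error only, which leaves out the spread between cells and between mice, so no test between the genotypes was possible.

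Alox5, the gene of the first enzyme, was largely a transcript of granulocytes. The 313 WT neutrophils held it at 116 CPM (95% interval 103 to 130) and the 332 mutant neutrophils at 139 (127 to 152). Basophils, with only 13 WT and 17 mutant cells, stood highest at 211 (145 to 296) and 231 (141 to 357), with 13 of their 33 WT UMIs in 1 cell. Among the mononuclear cells, macrophages led by Mrc1 and Folr2 (called Folr2-positive below) held 31.8 (21.3 to 45.7) and 53.6 (43.4 to 65.4). In classical monocytes it was 9.63 (4.40 to 18.3) and 12.2 (6.65 to 20.4), and in macrophages high in Mmp12 it was 2.27 (1.37 to 3.54) and 2.60 (1.48 to 4.22). The order in WT ran from basophils to neutrophils as a whole, Folr2-positive macrophages and monocytes, each step beyond the intervals of counting error. Those intervals treat UMIs as independent. Without the highest cell, WT basophils were at 156 CPM and WT Folr2-positive macrophages at 24.1, so the steps at these types depend partly on single cells. Immature and mature neutrophils overlapped (106 and 116 CPM in WT, 127 and 111 in the mutant).

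Schwann cells and mesenchymal cells, which should lack Alox5, gave the level of free RNA. They held it at 0.546 CPM (0.0138 to 3.04) and 0.758 (0.278 to 1.65) in WT and at 2.58 (0.313 to 9.33) and 1.19 (0.480 to 2.46) in the mutant. Of WT neutrophils 46.6% had an Alox5 UMI, against 0.268% of WT Schwann cells, at median depths of 4690 and 3494 UMIs. In the mutant the shares were 58.7% and 1.24% at medians of 8707.5 and 4138. With every cell thinned to 2000 UMIs the neutrophil shares were 21.8% and 24.7%, and those of macrophages 0.729% and 1.82%. As CPM, the intervals of the Mmp12-high macrophages overlapped those of Schwann and mesenchymal cells in both libraries, and the Folr2-positive macrophages lay well above. Per cell, the deeper Mmp12-high macrophages (medians of 31527 and 27990 UMIs) held more, at 0.0763 and 0.0879 Alox5 UMIs. Schwann cells held 0.00268 and 0.0124 a cell, and mesenchymal cells 0.0112 and 0.0202. The part of free RNA in the Mmp12-high level was not tested.

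Alox5ap, by contrast, ran through the whole myeloid lineage. It stood at 965 CPM (927 to 1005) in WT neutrophils and 707 (679 to 735) in mutant neutrophils, and at 359 (349 to 370) and 312 (303 to 321) in macrophages. Among the named cell types, before the finer clusters given below, classical monocytes were highest in WT, at 1144 (1077 to 1215). The 13 WT basophils overlapped them at 1029 (876 to 1200). In the mutant the monocytes held 494 (454 to 536). Progenitors of granulocytes and monocytes already held 489 (456 to 523) and 359 (330 to 390), whereas their Alox5 was only 3.43 (1.26 to 7.47) and 9.40 (5.26 to 15.5). Schwann cells stood at 6.55 (3.38 to 11.4) and 1.29 (0.0327 to 7.20). Outside the myeloid cells, T and NK cells held 206 (163 to 258) in WT, from 77 UMIs in 46 cells, and 41.8 (27.0 to 61.7) in the mutant. At 2000 UMIs a cell, 79.7% and 66.4% of neutrophils, 47.2% and 42.6% of macrophages and 1.29% and 0.685% of Schwann cells had an Alox5ap UMI.

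Lta4h, the gene of the LTB4 branch, was found at some level in most cell types and was raised in neutrophils as a whole. It stood at 270 CPM (250 to 292) in WT neutrophils and 269 (252 to 287) in mutant neutrophils, and at 47.9 (44.2 to 51.9) and 46.8 (43.3 to 50.6) in macrophages. Endothelial cells held 53.4 (48.0 to 59.2) and 57.5 (50.7 to 64.9), mesenchymal cells 36.4 (32.3 to 40.8) and 36.2 (31.5 to 41.4), and Schwann cells 37.1 (28.8 to 47.1) and 40.0 (27.2 to 56.8). Macrophages and endothelial cells were neighbours within their intervals in WT. Erythroid cells, with 7.74 (5.06 to 11.3) and 8.74 (6.64 to 11.3), lay below all of these. Mature neutrophils, from the reclustering described below, held only 12.7 (5.82 to 24.2) and 25.1 (15.7 to 38.0), under the macrophage level.

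Ltc4s, the gene of the cysteinyl branch, went the other way between neutrophils and macrophages. WT macrophages held it at 41.6 CPM (38.2 to 45.3) and mutant macrophages at 41.1 (37.8 to 44.7), while neutrophils held 11 UMIs in WT (4.48 CPM, 2.24 to 8.02) and 4 in the mutant (1.15, 0.313 to 2.95). Mature neutrophils, from the reclustering described below, held 26.9 CPM (16.2 to 42.0) in WT, from 19 UMIs in 5 cells. In the mutant they held 2.28 (0.276 to 8.24). Classical monocytes had 1 UMI in each library, so the gene was low in monocytes and present in macrophages. Basophils and dendritic cells had none, which with 3 UMIs as the limit allows up to 19.2 and 34.7 CPM in basophils and 16.5 and 11.2 in dendritic cells. Outside the myeloid cells, an endothelial cluster led by Ubd, Selp and Plvap held 14.6 CPM in WT and 13.3 in the mutant. A cluster of adipocytes held 36 UMIs in 24 mutant cells (67.9 CPM) and 21 in 6 WT cells (159 CPM, 98.6 to 243), of which 15 were in 1 cell. The WT adipocyte value lay above that of the Folr2-positive macrophages in the next rank (87.8, 69.6 to 109), on these 6 cells and with overlapping intervals. Without the highest adipocyte it was 57.2 CPM, below 87.8.

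Ltb4r1, the LTB4 receptor gene, was highest in neutrophils taken as a whole. It stood at 229 CPM (211 to 249) in WT neutrophils and 190 (175 to 205) in mutant neutrophils, against 15 (12.9 to 17.3) and 16.2 (14.1 to 18.5) in macrophages. Classical monocytes were between, with 40.6 (28.8 to 55.8) and 53.0 (40.5 to 68.0), beside progenitors with 59.5 (48.6 to 72.1) and 37.6 (28.7 to 48.4), and these neighbours overlapped in both libraries. Mature neutrophils, from the reclustering described below, held 58.0 (41.6 to 78.7) and 61.6 (46.3 to 80.4), which overlapped the monocytes in both libraries. T and NK cells held 61.6 (39.0 to 92.4) and 36.8 (23.0 to 55.7), from 46 and 84 cells. Schwann cells had 1 UMI in WT and none in the mutant.

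Alox15 was nearly silent in most cell types. It had 31 UMIs in all kept WT cells and 29 in the mutant, and none in neutrophils of either library. Macrophages had 0 UMIs in WT and 1 in the mutant. Basophils held 7 UMIs in 6 of 13 WT cells (44.7 CPM, 18.0 to 92.2) and 11 UMIs in 7 of 17 mutant cells (127 CPM, 63.5 to 227). Gland and airway epithelial cells held 3 UMIs in 1 of 9 WT cells and 6 UMIs in 5 of 59 mutant cells. A further 21 UMIs lay in 4 WT pericytes of a cluster led by Actg2, Vtn and Rgs5, with 15 of them in 1 cell, and the same cluster had 1 UMI in the mutant.

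**Figure D1:**
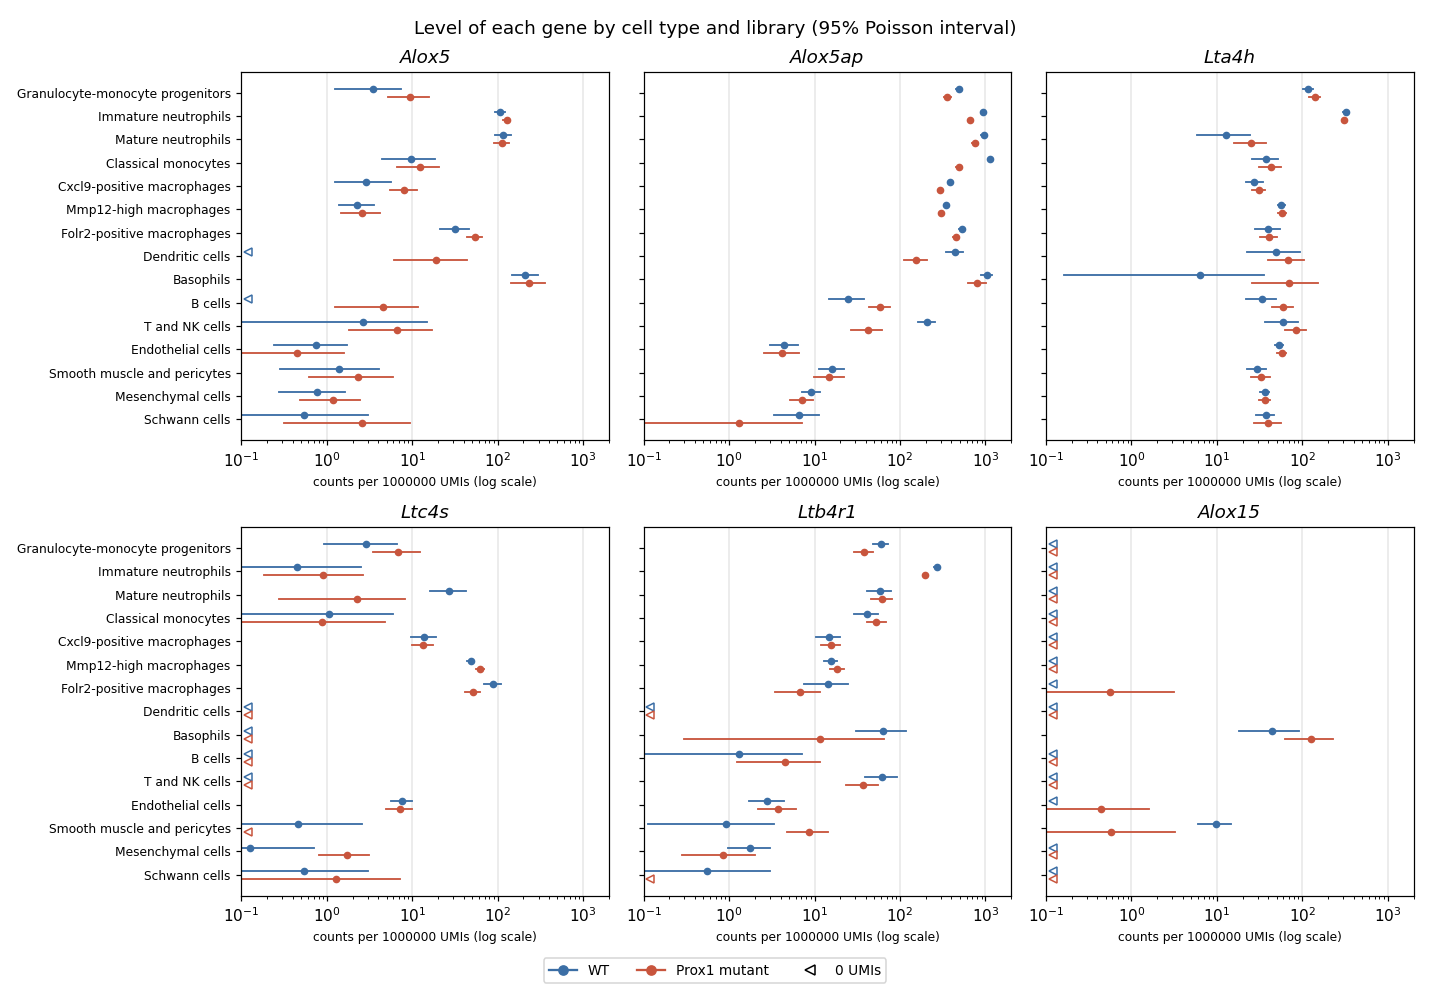
Level of each gene (counts per 1000000 UMIs, log axis) by cell type in the WT library (blue) and the Prox1 mutant library (red), with 95% Poisson intervals, cut at 0.1 on the left. Open triangles mark 0 UMIs. Alox5 is highest in basophils and neutrophils, and Alox5ap spans the myeloid types. Lta4h drops to 12.7 and 25.1 CPM in mature neutrophils, and Ltc4s is high in the Mmp12-high and Folr2-positive macrophages. Adipocytes are not drawn.

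Because cell types differ in number and depth, the share of all transcripts of a gene gives a further view. Neutrophils were 7.19% of the kept WT cells and 5.77% of the mutant cells, but held 59.1% (54.6 to 63.6) and 52.3% (49.0 to 55.6) of Alox5 UMIs and 50.5% and 45.4% of Ltb4r1 UMIs. Macrophages, 13.2% and 12.7% of the cells, held 79.6% (76.3 to 82.6) and 77.1% (73.8 to 80.1) of Ltc4s UMIs and 43.8% and 43.2% of Alox5ap UMIs. Lta4h was split more evenly, with 24.4% and 26.2% in neutrophils and 22.5% and 17.9% in macrophages. Unnamed clusters held 17.8% and 20.6% of Alox5. Of these, a cluster with markers of both neutrophils and macrophages, led by Ccl8, Retnlg and Mmp8, held 15.4% and 12.7%, at 51.2 and 48.0 CPM.

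**Figure D2:**
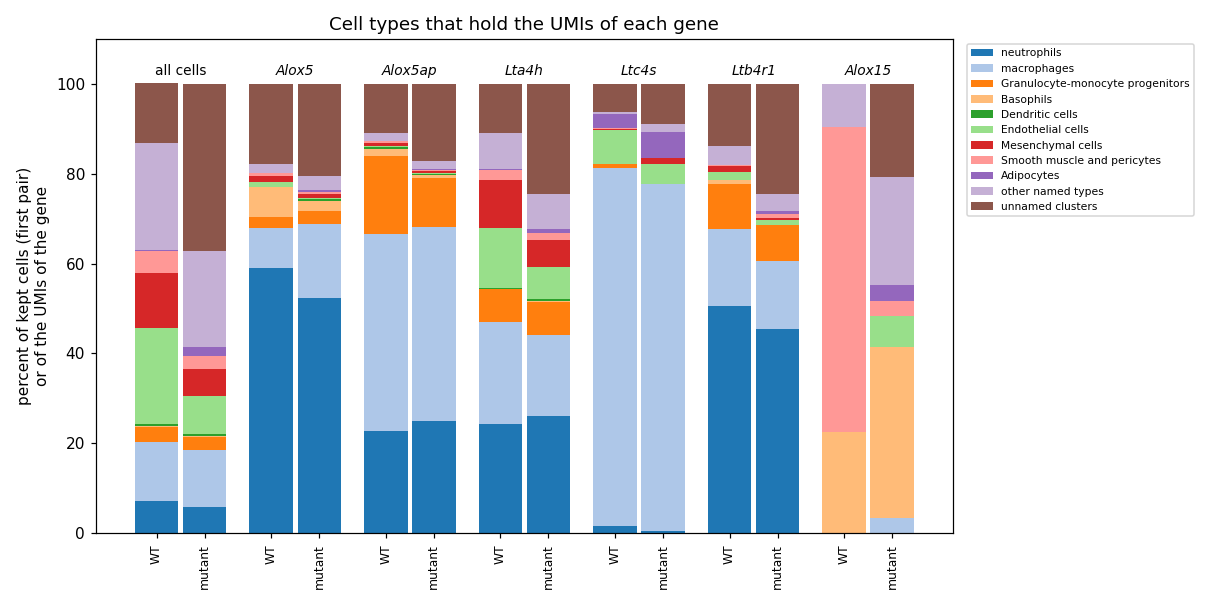
Percent of kept cells (first pair of bars) and percent of the UMIs of each gene (other pairs) held by each cell type, WT left and mutant right in each pair. Neutrophils hold 59.1% and 52.3% of Alox5 and macrophages 79.6% and 77.1% of Ltc4s, and the Alox15 bars rest on 31 and 29 UMIs.

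Neutrophils and macrophages were then compared within each library, for every member with at least 50 UMIs in both classes together. Alox5 was 34.4-fold higher in neutrophils in WT (log2 ratio 5.11, 4.64 to 5.60) and 12.5-fold higher in the mutant (3.65, 3.38 to 3.92). Ltb4r1 was 15.3-fold and 11.7-fold higher, Lta4h 5.65-fold and 5.74-fold higher, and Alox5ap 2.69-fold and 2.27-fold higher. The WT fold of Alox5 rests on a low macrophage level, 3.37 CPM (2.44 to 4.54) from 43 UMIs. That level overlapped WT Schwann cells (0.0138 to 3.04) and lay above WT mesenchymal cells (0.278 to 1.65). The Lta4h excess did not extend to mature neutrophils, which at 12.7 and 25.1 CPM lay below macrophages at 47.9 and 46.8. Ltc4s went the other way, with log2 ratios of -3.22 (-4.23 to -2.36) and -5.16 (-7.04 to -3.80). All 5 members were past 2-fold in both libraries, where 43.5% of 10041 genes in WT and 49.0% of 10681 in the mutant were past 2-fold, so crossing this line is common between these cell types. The direction of the Alox5ap ratio depended on how cells were typed: with cells gated by marker UMIs, which took in 1635 mutant neutrophils in place of 332, it was -0.57 in the mutant, although 0.48 in WT.

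Within the neutrophils, the members did not move together. Reclustering of 2762 myeloid cells separated 145 WT and 189 mutant immature cells, rich in granule genes such as Camp, Ngp and Ltf, from 177 and 148 mature cells in clusters led by Il1f9 or by Asprv1 and Cxcr2. These groups come from a separate clustering and are not a division of the 313 and 332 neutrophils above: they hold 322 and 337 cells, and their UMIs can exceed those of that class, as for Lta4h (723 in WT immature cells against 664) and Ltc4s (19 in WT mature cells against 11). Lta4h stood at 322 CPM (299 to 347) in WT immature cells and 12.7 (5.82 to 24.2) in WT mature cells, a log2 ratio of 4.66 (3.73 to 5.80). In the mutant it was 311 (293 to 331) against 25.1 (15.7 to 38.0), a log2 ratio of 3.63 (3.03 to 4.31). A shallow subcluster of 28 WT and 104 mutant cells, with 7 of the 8 mature neutrophil markers raised, was left unnamed and is not in these values. A shallow unnamed cluster with neutrophil markers, described under other observations, held more Lta4h, on few UMIs. The low level therefore stands for the named mature clusters only. Ltb4r1 was also higher in immature cells, at 271 against 58.0 CPM in WT (log2 2.22, 1.76 to 2.72) and 198 against 61.6 in the mutant (1.69, 1.29 to 2.12). Alox5 and Alox5ap stayed within 2-fold, with log2 ratios of -0.13 and -0.03 in WT and 0.20 and -0.21 in the mutant. Thus 2 of 4 members with enough UMIs were past 2-fold, where 34.5% of 5627 genes in WT and 36.7% of 6525 in the mutant were. Thinned to 2000 UMIs, which keeps 144 and 189 immature and 135 and 127 mature cells, 40.3% and 41.8% of immature cells and 2.96% and 3.15% of mature cells had an Lta4h UMI.

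Finer clusters showed where each gene was highest. In progenitors Lta4h stood at 118 CPM in WT and 139 in the mutant. It was highest in the immature cluster led by Fcnb, Camp and Cebpe (382 and 390), lower in the immature cluster led by Ly6g, Ifitm6 and Mmp8 (281 and 277), and low in both mature clusters (10.7 and 26.2 in the cluster led by Stfa2l1, Cstdc4 and Asprv1, and 15.1 and 22.5 in the cluster led by Csf1 and Il1f9). Alox5 followed another course, with 61.0 and 98.4 in the Fcnb cluster, 137 and 140 in the Ly6g cluster, 184 and 149 in the Asprv1 cluster and 39.2 and 22.5 in the Il1f9 cluster. Alox5ap had the same shape as Alox5, with its highest values in the Asprv1 cluster, 1276 and 963. Between the mature clusters, Asprv1 over Il1f9, the log2 ratio of Alox5 was 2.23 (1.36 to 3.21) for WT cells and 2.73 (1.55 to 4.21) for mutant cells, and that of Alox5ap 1.09 (0.85 to 1.33) and 1.77 (1.42 to 2.14). There 22.8% of 2217 genes in WT and 31.9% of 2460 in the mutant were past 2-fold. The Il1f9 cluster was shallow, with medians of 2634 and 3528 UMIs, and held macrophage markers at 1448 and 804 CPM. The part of these in the lower levels was not tested.

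**Figure D3:**
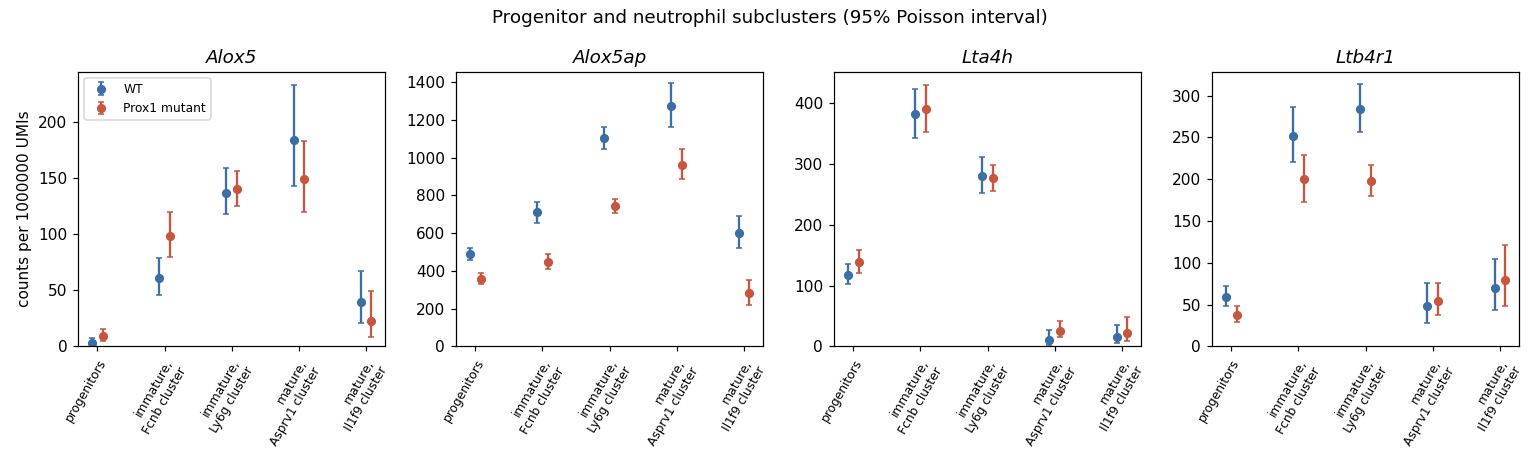
Counts per 1000000 UMIs of 4 members in progenitors and in the immature and mature neutrophil clusters, WT in blue and mutant in red, with 95% Poisson intervals. Lta4h and Ltb4r1 are highest in the immature clusters in both libraries, Alox5ap in the mature Asprv1 cluster, and Alox5 in that cluster and the Ly6g cluster, whose intervals overlap. The clusters are placed from left to right by their marker genes and the order was not inferred from the data.

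The macrophage subsets divided the members in another way. They too come from the reclustering and are not a division of the macrophages described above. Alox5 was 14-fold lower in the 249 Mmp12-high cells than in the 68 Folr2-positive cells of WT (log2 -3.81, -4.73 to -2.93, from 19 and 29 UMIs) and 20.6-fold lower in the mutant (-4.37, -5.23 to -3.59). In the Folr2-positive cells 5 cells held 19 of the 29 WT UMIs and 31 of the 96 mutant UMIs. Without the highest cell the WT level was 24.1 CPM. The intervals treat UMIs as independent and are too narrow here. Alox5ap was also lower in the Mmp12-high cells, though within 2-fold. It stood at 347 against 531 CPM in WT (log2 -0.61, -0.75 to -0.47) and at 303 against 453 in the mutant (-0.58, -0.70 to -0.46). Lta4h was somewhat higher in the Mmp12-high cells, with a log2 ratio of 0.52 in both libraries. Past 2-fold were 0 of 4 members with at least 50 UMIs in WT, where Alox5 had too few, and 2 of 5 in the mutant, Alox5 and Ltb4r1 (log2 1.45, 0.59 to 2.45). Of all genes 27.3% in WT and 18.3% in the mutant were past 2-fold. The Folr2-positive cells also carried neutrophil RNA: the 8 neutrophil markers summed to 6383 CPM in WT and 2372 in the mutant, against 175258 and 213824 in neutrophils. Their part in the Alox5 level was not tested.

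Ltc4s was uneven within the macrophages. Mmp12-high cells held 48.1 CPM (43.5 to 53.0) and 61.5 (55.5 to 68.1), WT first, Folr2-positive cells 87.8 (69.6 to 109) and 50.8 (40.9 to 62.4), and Cxcl9-positive cells 13.6 (9.62 to 18.7) and 13.4 (10.0 to 17.4). Only 32.1% and 36.8% of Mmp12-high cells, at medians of 31527 and 27990 UMIs, had an Ltc4s UMI. The 5 cells with the most held 39.2% of the 403 UMIs in WT and 44.3% of the 379 in the mutant, and in Folr2-positive cells they held 48 of 80 and 49 of 91. A single mutant cell with 69 UMIs, out of its 124559 UMIs of all genes, moved the Mmp12-high value from 61.5 to 51.4 CPM when it was left out. The intervals, which treat UMIs as independent, are therefore too narrow for this gene. The log2 ratio of Mmp12-high over Folr2-positive cells was -0.87 (-1.22 to -0.50) in WT. In the mutant it was 0.28 (-0.06 to 0.62), which shows no order of these subsets there.

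Between the genotypes, the neutrophils gave small ratios. Per cell type, mutant over WT, the log2 ratio in neutrophils was 0.26 (0.04 to 0.48) for Alox5, -0.45 (-0.53 to -0.37) for Alox5ap, -0.01 (-0.15 to 0.14) for Lta4h and -0.28 (-0.44 to -0.11) for Ltb4r1. None of these 4 was past 2-fold, where 5.55% of 7225 genes were, and the median of all genes was 0.01. CPM is a share of all transcripts, and S100a8 and S100a9 alone took 16.6% of the UMIs of WT neutrophils and 20.4% of those of mutant neutrophils. With these, haemoglobin and mitochondrial genes left out of the totals, the ratio of Alox5ap was -0.37 and that of Alox5 was 0.34. The ratios also depended on how neutrophils were found: gated by marker UMIs they were -0.62 for Alox5, -1.38 for Alox5ap, -0.58 for Lta4h and -1.02 for Ltb4r1, and with the libraries merged without integration Alox5 gave -0.02.

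Alox5ap was lower in the mutant library in most myeloid groups, an exception being the shallow macrophage cluster led by Fabp5 and Apoc2 (295 CPM in WT and 328 in the mutant, with overlapping intervals). Its log2 ratio was -0.44 (-0.60 to -0.29) in progenitors, -0.53 (-0.62 to -0.44) in immature neutrophils and -0.34 (-0.50 to -0.19) in mature neutrophils, none past 2-fold, while 5.68%, 5.14% and 11.3% of all genes in these cells were. Within the immature cells it was -0.57 in the Ly6g cluster and -0.66 in the Fcnb cluster, where 5.88% and 5.43% of genes were past 2-fold. In the mature clusters it was -1.09 (-1.49 to -0.70) for the Il1f9 cluster, from 199 WT and 75 mutant UMIs and past 2-fold as were 13.8% of genes, and -0.41 (-0.58 to -0.23) for the Asprv1 cluster, where 10.4% were. It was -0.40 in Cxcl9-positive, -0.20 in Mmp12-high and -0.23 in Folr2-positive macrophages, where 3.91%, 6.28% and 4.02% of genes were past 2-fold. Classical monocytes had the clearest difference: 1070 UMIs in 73 WT cells and 569 in 94 mutant cells gave -1.21 (-1.36 to -1.06), past 2-fold as were 9.44% of 5540 genes in these cells. Thinned to 2000 UMIs, 76.7% of WT and 54.4% of mutant monocytes had an Alox5ap UMI. The summed erythroid markers in monocytes were 62.0 CPM in WT and 1507 in the mutant, the neutrophil markers 3190 and 4663, and haemoglobin genes took 0.0265% and 0.642% of UMIs. Their part in the lower Alox5ap was not tested. Dendritic cells (21 and 25 cells) were 1 cluster led by Grm8, Siglech and Ly6d. Only 3 of the 8 markers for this type were raised in it (Flt3, Clec9a and Siglech), so its values may not stand for dendritic cells in general. It held 435 and 153 CPM, a log2 ratio of -1.51, with 34 of 79 WT UMIs in 1 cell. There 18.5% of 1965 genes were past 2-fold.

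In macrophages, Alox5 was the member that differed: 43 UMIs in 573 WT cells and 151 in 733 mutant cells gave 3.37 CPM (2.44 to 4.54) and 11.1 (9.38 to 13), a log2 ratio of 1.72 (1.22 to 2.24). The WT level was low and overlapped that of WT Schwann cells (0.0138 to 3.04), though not that of WT mesenchymal cells (0.278 to 1.65). Alox5 was the only 1 of 5 members past 2-fold, where 7.83% of 11253 genes were and the median of all genes was 0.22. Alox5ap had -0.20 (-0.26 to -0.14), Lta4h -0.03 (-0.19 to 0.13), Ltc4s -0.02 (-0.19 to 0.16) and Ltb4r1 0.11 (-0.17 to 0.40). In the subsets the Alox5 ratios had wide intervals that overlapped, so they do not show whether the subsets differ. The ratio was 0.75 (0.14 to 1.40) in Folr2-positive macrophages, from 29 WT and 96 mutant UMIs. It was 1.47 (0.32 to 2.80) in Cxcl9-positive macrophages, from 8 and 32 UMIs, with 20 of the 32 in 5 cells. In Mmp12-high macrophages it was 0.20 (-0.86 to 1.23), from 19 and 16 UMIs. In a cluster led by C1qa, Mrc1 and C1qc, which held 122 of the 151 mutant UMIs, it was 1.68 (1.04 to 2.38). The neutrophil markers in all macrophages summed to 974 CPM in WT and 2367 in the mutant. A shallow cluster led by Fabp5 and Apoc2 made up 5.06% and 20.6% of macrophages. The macrophage mix also differed: the Mmp12-high cluster led by Mmp12, H2-M2 and Cxcl3, with Alox5 at 1.63 and 3.34 CPM, had 257 WT and 192 mutant cells. The part of each of these in the ratio was not tested. Over the other ways of choosing cells and totals the ratio was lowest at 1.05, with cells gated by marker UMIs.

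**Figure D4:**
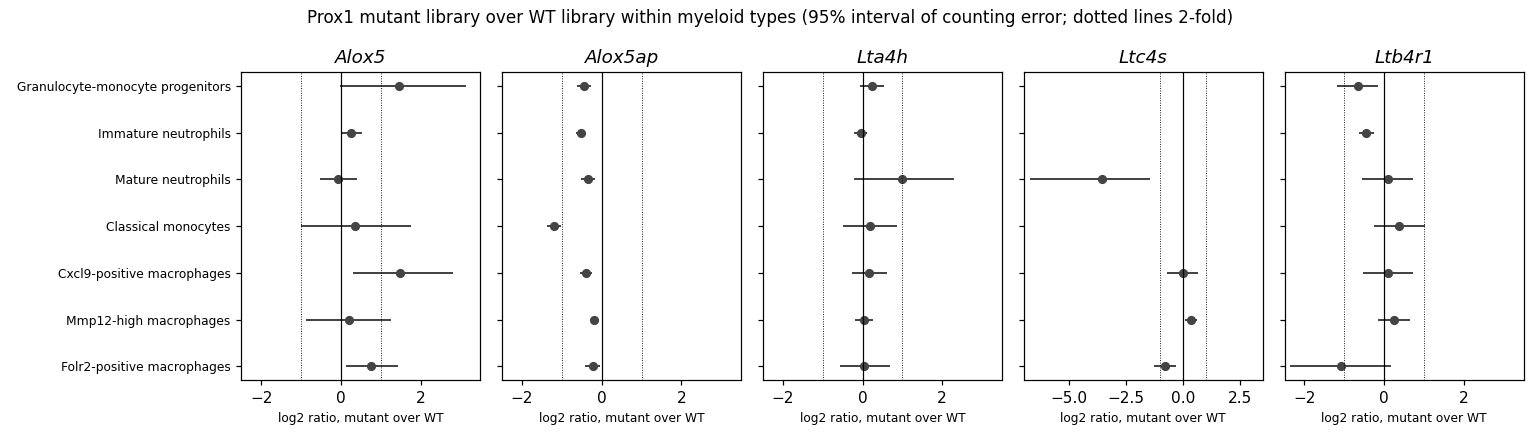
Log2 ratio of counts per 1000000 UMIs, Prox1 mutant library over WT library, in progenitors, neutrophils, monocytes and macrophage subsets, with 95% intervals of counting error. Dotted lines mark 2-fold, the axis of Ltc4s is wider than the others, and a point is drawn only with at least 20 UMIs. Alox5ap lies below 0 in all 7 types, at -1.21 in classical monocytes, and Lta4h stays close to 0 except in mature neutrophils, where its interval is wide.

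LTB4 needs Alox5, Alox5ap and Lta4h in reach of each other, so cells with UMIs of all 3 were counted. They were 60.7% (52.2 to 68.7) of WT and 65.6% (58.4 to 72.4) of mutant immature neutrophils, but 1.69% (0.351 to 4.87) and 5.41% (2.36 to 10.4) of mature neutrophils, which were shallower (medians of 2910 and 4908 UMIs against 12812 and 13442). At 2000 UMIs a cell the shares were 6.25% (9 of 144) and 7.41% (14 of 189) against 0 of 135 and 0 of 127. Alox5ap with Lta4h alone, which needs less depth, gave 36.8% and 27.5% of immature against 2.22% and 1.57% of mature neutrophils after thinning. Of Schwann cells 0 of 373 and 0 of 161 had all 3, which allows shares of up to 0.804% and 1.86%.

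The set for LTC4, Alox5 with Alox5ap and Ltc4s, was rare outside 1 subset. It was found in 9 of 68 WT (13.2%, 6.23 to 23.6) and 17 of 88 mutant Folr2-positive macrophages (19.3%, 11.7 to 29.1). In Mmp12-high macrophages it was in 6 of 249 and 6 of 182 cells, although these cells were deeper, and in neutrophils it was in 1 of 313 and 2 of 332. After thinning, 1 cell per library remained in the Folr2-positive subset, so the shares at equal depth are set by counting error.

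**Figure D5:**
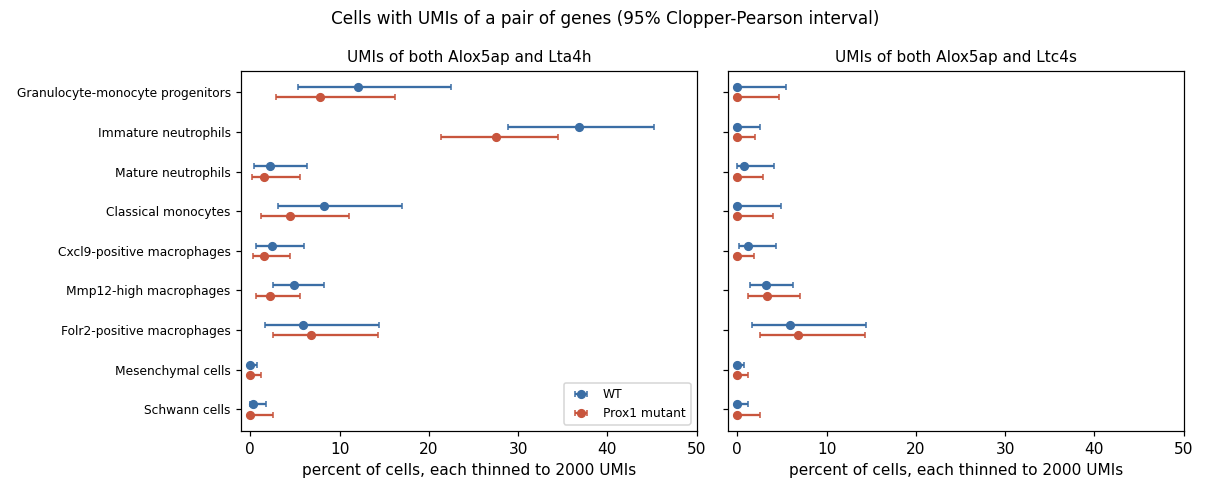
Percent of cells, each thinned to 2000 UMIs, with UMIs of both Alox5ap and Lta4h (left) and of both Alox5ap and Ltc4s (right), by cell type, WT in blue and mutant in red, with 95% Clopper-Pearson intervals. Immature neutrophils stand at 36.8% and 27.5% on the left and at 0 on the right, where Mmp12-high and Folr2-positive macrophages lie between 3.23% and 6.82%.

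A list of 32 other genes of leukotriene and lipoxygenase metabolism was read beside the members. Of the 14 with at least 20 UMIs in neutrophils and the 18 in macrophages, 0 were past 2-fold between the genotypes, with medians of 0.15 and 0.04. Of all genes with at least 20 UMIs 9.43% in neutrophils and 11.5% in macrophages were past 2-fold, so a count of 0 in lists of this size is not particular to them. Between neutrophils and macrophages, 2 of 17 were past 2-fold higher in neutrophils in both libraries: Mgst2, a microsomal glutathione transferase that can also make LTC4 (82.7 against 26.9 CPM in WT, 99.8 against 18.2 in the mutant), and Ggt5, which cleaves LTC4 to LTD4 (22.4 against 2.43, and 20.4 against 2.42). Higher in macrophages in both were 6: Abcc1, the exporter of LTC4 (147 against 34.6 CPM in WT), Dpep2, a dipeptidase that turns LTD4 to LTE4 (56.6 against 4.89), Ptgr1, which inactivates LTB4 (177 against 28.9), Cysltr1, a receptor for LTD4 (19.3 against 4.48), Mgst3 and Cyp4f16. Of these 8 genes all but Abcc1 and Ptgr1 were named after their values were seen. In WT alone 3 of the 17 were past 2-fold higher in neutrophils and 7 higher in macrophages, and in the mutant alone 2 and 6. Of all genes with at least 50 UMIs, 43.5% in WT and 49.0% in the mutant were past 2-fold, as given above. The share of all genes past 2-fold in both libraries was not computed, so the counts say nothing particular about the pathway.

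Further genes of the list, at the top of the pathway and beyond it, were found in both cell types. Pla2g4a, the phospholipase that frees arachidonic acid, stood at 61.1 CPM in WT neutrophils and 98.3 in WT macrophages, with log2 ratios of mutant over WT of 0.56 and -0.13. Cotl1, which binds 5-lipoxygenase, stood at 351 and 360 CPM in neutrophils, WT first, against 391 and 301 in macrophages, and Mapkapk2, a kinase that phosphorylates it, at 582 and 729 against 379 and 603. Gpx4, a lipid peroxide reductase, was at 207 and 139 against 366 and 230. Cyp4f18, which oxidises LTB4 in neutrophils, held 172 and 145 against 63.3 and 116, past 2-fold higher in neutrophils in WT only (log2 1.44, and 0.33 in the mutant). Fpr2, a receptor for formyl peptides and lipoxin A4, held 206 and 315 against 125 and 215.

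Across 18 cell types in both libraries (36 points, which share their library within each set of 18), the genes with the level most like each member were found by Pearson's r of log2(CPM + 5) over 13696 genes. For Alox5ap they included Tyrobp (0.98) and Spi1 (0.96), both known from myeloid cells. For Ltb4r1 they were Pglyrp1 (0.90), Wfdc21 (0.88) and Cd177 (0.86), the first and last being known neutrophil genes. For Alox5 they were A530064D06Rik (0.92), Siglece (0.90) and 9830107B12Rik (0.89). Lta4h had Zmpste24 (0.80), Cpne3 (0.78) and Fcnb (0.77), and Ltc4s had Pf4 (0.83), Tpp1 (0.80) and Trem2 (0.79), of which Fcnb and Pf4 were among the markers used to name cell types. Basophils, with under 20 cells in each library, were not among the 18 types, and no gene is named for Alox15, since 21 of its UMIs within these types were in WT smooth muscle and pericytes. Between members the highest values were 0.74 for Alox5ap with Ltb4r1, 0.68 for Alox5 with Alox5ap and 0.67 for Alox5 with Ltb4r1, while Ltc4s with Lta4h gave -0.03.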

How the data were processed

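Raw UMI counts per gene and cell, deposited by the authors, came from 10x Genomics 3' libraries processed with Cell Ranger 7.0.1 on GRCm38; the kit version differs between the labels and the study's methods, and the handling of intronic reads is not given in the sources used here. Barcodes needed 500 or more genes and a mitochondrial share below 10%. Libraries were integrated and clustered in Seurat 5.3.0 with sctransform 0.4.2 (R 4.3.3; 3000 features, 200 components, resolution 1.5), with the 6 members left out of the features, and clusters were named from marker lists. Myeloid cells were reclustered (30 components, resolution 0.5). Doublets were kept; Scrublet's automatic threshold (scanpy 1.11.5) called 0, and removal at the expected rate was an alternative. Levels are summed counts per 1000000 UMIs with exact Poisson 95% intervals, ratios have exact conditional binomial intervals, and shares have Clopper-Pearson intervals (scipy 1.17.1). The scripts were tested on simulated data. A gene was called past 2-fold, among genes with at least 50 UMIs. Named genes were the members, pathway genes past 2-fold between the libraries or among the 8 highest, and the 3 genes most alike to each member, of which 1 is not reported here and those of Alox15 are left out. The members and lists were chosen with earlier results of these data known. Alternatives were other cell filters, integration, resolution, gating, averaging, thinning and totals.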

Additional observations from a re-analysis of the deposited data

Results flagged for a closer look

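The log2 ratio of Alox5ap between the mutant and the WT library differed among cell types, and the differences were not tested. It was 1.25 in B cells and 1.61 in chondrocytes, against -1.59 in erythroid cells and -2.30 in T and NK cells, types in which the gene was low or rested on few cells. Among myeloid cells it was -0.44 in granulocyte-monocyte progenitors, -0.53 in immature neutrophils and -0.34 in mature neutrophils. It was -1.21 in classical monocytes, -0.40 in Cxcl9-positive, -0.20 in Mmp12-high and -0.23 in Folr2-positive macrophages, and -1.51 in dendritic cells.

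The ratio of Ltc4s had opposite signs in groups of cells, again with the difference not tested. It was 0.36 in Mmp12-high macrophages and -0.79 in Folr2-positive macrophages. In mature neutrophils it was -3.56, from 19 UMIs in 5 WT cells and 2 UMIs in 2 mutant cells.

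Barcodes that the cell filter left out also held member transcripts. Alox5 stood there at 4.47 CPM in WT and 6.65 in the mutant, and Alox5ap at 24.5 and 13.6.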

How the results depend on the processing

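No paired analysis was possible because each genotype had 1 library. All values are log2 ratios; where 2 are joined by "and" for neutrophils over macrophages, WT is first, and the causes of the changes were not tested. Under a filter of 200 genes and 20% mitochondrial UMIs, neutrophils over macrophages was 1.27 for Alox5ap in the mutant. Under one of 1000 genes and 5%, it was 1.60 and 1.33 for Alox5ap and 2.30 and 2.35 for Lta4h. Merged without integration, mutant over WT in neutrophils was -0.02 for Alox5 and -0.62 for Alox5ap, and neutrophils over macrophages was 4.46 and 3.11 for Alox5, 1.31 and 0.94 for Alox5ap, 2.23 and 2.15 for Lta4h, 3.62 and 3.10 for Ltb4r1 and -1.82 for Ltc4s in WT. At resolution 0.5, Lta4h was 0.15 between the libraries in macrophages, and neutrophils over macrophages was 4.06 and 3.08 for Alox5, 1.29 and 1.02 for Alox5ap, 3.51 and 3.11 for Ltb4r1 and 2.28 for Lta4h in the mutant. Gating by marker UMIs, which gave 475 WT and 1635 mutant neutrophils in place of 313 and 332, moved most values. Mutant over WT in neutrophils was then -0.62 for Alox5 (turned from 0.26, 0.04 to 0.48), -1.38 for Alox5ap, -0.58 for Lta4h and -1.02 for Ltb4r1. In macrophages it was 1.05 for Alox5, -0.33 for Alox5ap, 0.34 for Lta4h and -0.33 for Ltc4s. Neutrophils over macrophages was 2.01 and 0.33 for Alox5, 0.48 and -0.57 for Alox5ap (turned in the mutant), 1.27 and 0.35 for Lta4h, 1.85 and 0.74 for Ltb4r1 and -2.94 for Ltc4s in the mutant. With the mean of each cell's CPM, mutant over WT was 1.17 for Alox5, -0.30 for Alox5ap, 0.16 for Lta4h and -0.32 for Ltc4s in macrophages, and 0.27 for Lta4h and -0.02 for Ltb4r1 in neutrophils, and neutrophils over macrophages was 4.46 for Alox5 in WT, 2.0 and 2.11 for Lta4h and 3.37 and 3.14 for Ltb4r1. The next alternatives were chosen after seeing the data. Classes from the myeloid subclusters gave 4.55 and 3.36 for Alox5 and 1.35 and 1.07 for Alox5ap, neutrophils over macrophages. Leaving haemoglobin, S100a8, S100a9 and mitochondrial UMIs out of the totals gave 3.97 for Alox5 and 3.87 for Ltb4r1 in the mutant, 1.67 and 1.5 for Alox5ap and 2.74 and 2.85 for Lta4h. The other 138 values of the main comparisons moved by less than their intervals, those with doublets removed among them. The share of all genes past 2-fold between the libraries was 9.43% and 2.73% in neutrophils with at least 20 and 200 UMIs a gene, and 11.5% and 4.24% in macrophages. The ratios between genotypes within subsets, that of Alox5ap in monocytes included, were not recomputed under other cell filters. Counting limits Alox15 and Ltc4s in neutrophils most.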

Other observations

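An unnamed cluster led by Abca13, Cpa6 and Msra (23 WT and 85 mutant cells) had a median of only 1017 UMIs in WT and 1090 in the mutant. It had 5 of the 8 neutrophil markers raised, and was left unnamed because it was shallow and none of these markers led it. It held Alox5 at 333 and 174 CPM, Lta4h at 565 and 522 and Alox5ap at 166 and 137. These rest on few UMIs (10 and 19 for Alox5, 17 and 57 for Lta4h, 5 and 15 for Alox5ap). Lta4h stood above and Alox5ap below the intervals of neutrophils of the same library, and Alox5 stood above in WT only, with overlapping intervals in the mutant (105 to 272 against 127 to 152).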
